A study of Mus musculus with 9 samples.

Results

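The genes described here are Hif1a, which encodes the oxygen-regulated subunit of hypoxia-inducible factor 1 (HIF-1), and 9 classic targets of this factor outside glycolysis: Vegfa, Adm, P4ha1, P4ha2, Bnip3, Egln1, Egln3, Ankrd37 and Car9. They were taken by symbol from the deposited table, in which each symbol stood for 1 gene ID, and they are 10 of the 53715 gene IDs listed. RNA had been sequenced from primary myoblasts, muscle precursor cells in culture, at passage 1 and of the strain C57BL/10ScSn-Dmdmdx/J. All cells therefore carried the mdx mutation of the dystrophin gene, and no cells with intact dystrophin are compared here. One group received 0.2 mM glycine (n = 3 libraries) and the other 0.8 mM glycine (n = 6 libraries), with no other treatment named, and the comparison asks how transcript levels differ between these amounts of the amino acid. Nothing in the labels ties a library to its own culture or animal, so p-values measure the spread between libraries, which may be technical. The libraries carry 1 series number per glycine level, so a batch following that number cannot be told apart from glycine.

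HIF-1 is a pair of proteins, the subunit HIF-1alpha and its constant partner ARNT. In the presence of oxygen, the prolyl hydroxylases encoded by the Egln genes mark HIF-1alpha, which the von Hippel-Lindau protein then sends for degradation, so its activity is set mainly at the protein and not at the transcript. When oxygen is low the factor accumulates and raises genes for glycolysis, blood vessel growth, collagen modification, mitochondrial removal and pH control, among them Egln3, which feeds back on the pathway. The factor binds DNA at a short core, ACGTG or GCGTG, on either strand.

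Levels are in TPM, a unit of transcript abundance that corrects for transcript length and has the same total in every library. It does not record how many reads lie behind a value, so the depth is unknown. Errors on means are the SD among the libraries of a group (3 at 0.2 mM, 6 at 0.8 mM). A change is the log2 fold change on the log2(TPM + 1) scale, positive where 0.8 mM was higher, which understates changes of genes near or under 1 TPM. It came from limma, a linear model fitted to all genes, and a gene "rose" or "fell" where its Benjamini-Hochberg adjusted p over all tested genes was under 0.05. Genes entered the test with at least 1 TPM in at least 3 libraries. That left 10049, all 10 hypoxia genes among them.

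The core to which the factor binds was looked for before the start of each gene, and the stretches that hold it are printed for the 5 genes on which the results turn. RefSeq (GRCm38.p6) gave a promoter for all 10, with 11 windows because Vegfa has more than 1 start. In the 250 bases before the start, ACGTG or GCGTG was searched on both strands, with overlapping matches counted as 1. Of the 11 windows, 10 held a match, against 38.6% of 32851 windows of the same length in the table, and at least 3 matches stood in 4.65% of those. The window without a match belonged to 1 of the Vegfa starts. Each stretch reads 5′ to 3′ on the strand of its gene and overlaps no exon of GENCODE M21, with the matches (or their reverse complements CACGT and CACGC) in capitals. P4ha1, at chr10:59323113-59323295 on the plus strand, and P4ha2, at chr11:54100797-54100879 on the plus strand, are related genes that held 3 matches each. The P4ha2 stretch lies before its RefSeq start but after the first start that GENCODE M21 gives the gene. Bnip3, at chr7:138909520-138909643 on the minus strand, held 4. Egln3, at chr12:54204079-54204123 on the minus strand, held 1, and Adm, the gene that fell, held 2 at chr7:110627547-110627627 on the plus strand. A match is a string of letters and not evidence of binding.
P4ha1: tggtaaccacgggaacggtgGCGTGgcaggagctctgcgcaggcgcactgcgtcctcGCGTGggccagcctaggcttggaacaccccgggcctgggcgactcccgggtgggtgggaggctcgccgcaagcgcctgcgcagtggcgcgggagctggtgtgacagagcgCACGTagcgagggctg
P4ha2: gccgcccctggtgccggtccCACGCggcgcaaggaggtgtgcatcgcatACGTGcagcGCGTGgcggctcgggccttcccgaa
Bnip3: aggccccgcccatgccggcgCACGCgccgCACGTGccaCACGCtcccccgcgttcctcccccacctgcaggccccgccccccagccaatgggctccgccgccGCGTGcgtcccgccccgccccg
Egln3: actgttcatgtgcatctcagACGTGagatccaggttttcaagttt
Adm: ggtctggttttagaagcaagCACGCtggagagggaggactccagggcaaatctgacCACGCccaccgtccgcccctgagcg

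The 10 hypoxia genes moved in both directions. At 0.8 mM glycine P4ha1 and Egln3 rose, Adm fell, and the other 7 did not pass. Among all genes tested 16.7% rose and 9.81% fell, 26.6% together, so 2 that rose and 1 that fell of 10 is near the background. The split over all genes moved with scaling, from 1683 that rose and 986 that fell to 1418 and 1287 with median-ratio scaling and to 1324 and 1335 with quantile normalization. The median log2 fold change was 0.23 over the 10 genes and 0.06 over all genes tested. The groups' values did not overlap for P4ha1, higher at 0.8 mM as for 17.6% of all genes tested, and for Adm, lower at 0.8 mM as for 10.6%, so for 2 of the 10 against 28.2% of all genes tested.

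**Figure D1:**
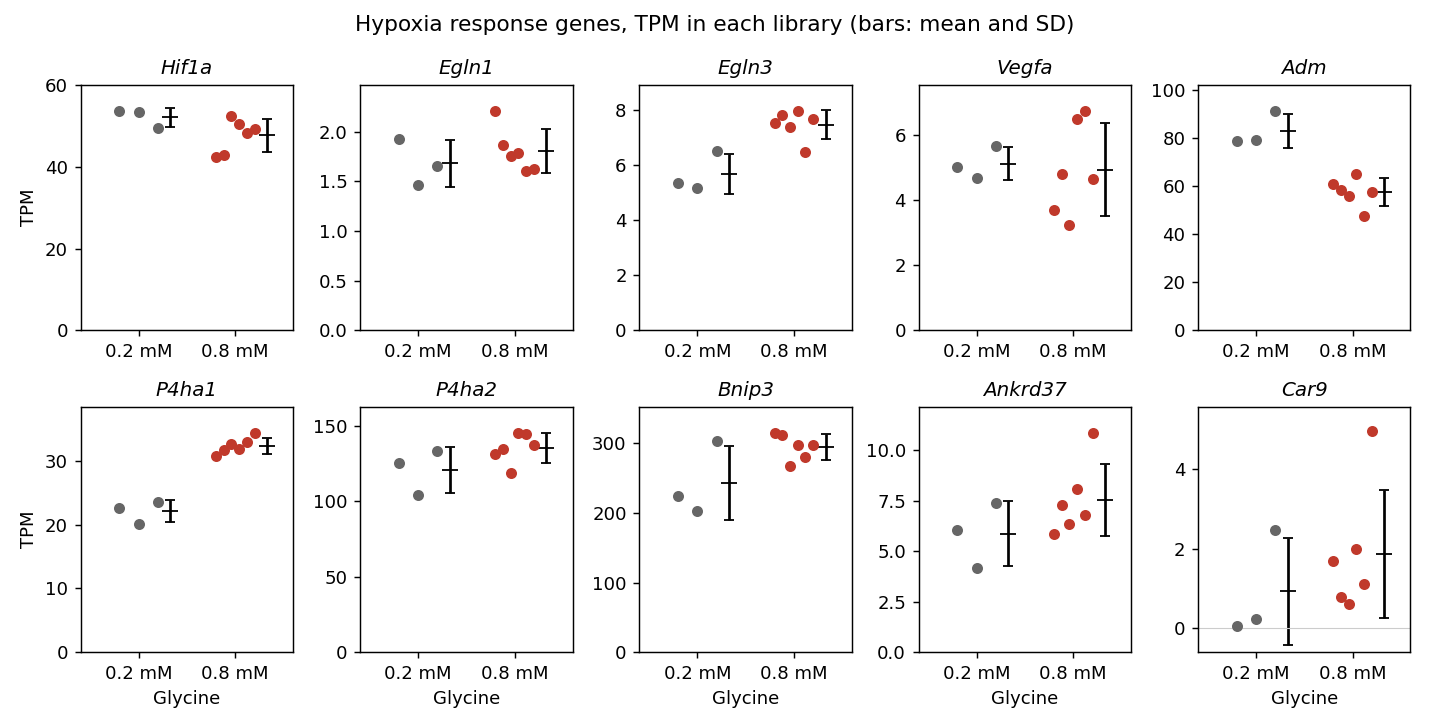
TPM of each of the 10 hypoxia response genes (vertical axes) in each library, grey for the 3 at 0.2 mM and red for the 6 at 0.8 mM glycine, and beside them the group's mean with its SD in black. The groups are apart for P4ha1 and for Adm, and the libraries of the other 8 genes overlap, most widely for Car9.

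The regulator itself, Hif1a (chromosome 12, 73901375 to 73947530), stood at 53.6, 53.4 and 49.4 TPM at 0.2 mM and at 42.4, 48.8 and 52.6 TPM (lowest, median, highest) at 0.8 mM. The highest library at 0.8 mM lay within the range at 0.2 mM, so the groups overlapped. The log2 fold change was -0.13 ± 0.08 (SE), with a 95% interval from -0.31 to 0.05 and a limma adjusted p of 0.289. Its exons overlap the antisense gene Gm15283 and the gene Gm49321, neither above 1.52 TPM in any library. Its partner Arnt was much less abundant, at 2.40 ± 0.470 and 2.32 ± 0.535 TPM, and so was the related subunit gene Epas1, at 1.00 ± 0.162 and 1.31 ± 0.183 TPM. Hif1a TPM were 17.9- to 28.6-fold those of Arnt at 0.2 mM and 15.7- to 39.9-fold at 0.8 mM, a ratio not shown to differ between the groups (two-sided exact permutation p = 0.833, adjusted p = 0.833 over 5 pairs of genes). Hif3a was at 0 TPM in all libraries but 1.

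The hydroxylases that oppose the factor were Egln1, Egln2 and Egln3. Egln3, like Egln1 a HIF target itself (chromosome 12, 54178981 to 54203860), stood at 5.36, 5.15 and 6.49 TPM at 0.2 mM and at 6.46, 7.60 and 7.95 TPM (lowest, median, highest) at 0.8 mM. A single library at 0.8 mM, replicate 5, fell below the highest at 0.2 mM, replicate 3, and by a small margin. Egln3 rose by 0.35 ± 0.11 (SE, limma adjusted p = 0.0335), 31.7% in mean TPM. This call was lost without 0.2 mM replicate 1 (limma adjusted p = 0.117), without 0.2 mM replicate 2 (0.134), and without any of replicates 1, 2, 3, 4 or 6 at 0.8 mM (0.0544 to 0.0609). It was also lost with median-ratio scaling (0.0756), quantile normalization (0.0756), ribosomal RNA genes removed (0.0546) and the library number as a block (0.158, and 0.0973 in the same 6 libraries without the block).

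Egln1, the main oxygen sensor of the family (chromosome 8, 124908587 to 124949324), was low, at 1.93, 1.46 and 1.66 TPM at 0.2 mM and 1.61, 1.77 and 2.21 TPM (lowest, median, highest) at 0.8 mM. Its groups overlapped throughout, with a 95% interval of the log2 fold change from -0.21 to 0.35 (limma adjusted p = 0.751). Egln2 was the most abundant of the family, at 9.32 ± 1.37 and 8.76 ± 0.816 TPM. Egln3 TPM were 2.78- to 3.91-fold those of Egln1 at 0.2 mM and 3.41- to 4.72-fold at 0.8 mM, and the ratios were not shown to differ between the groups (two-sided exact permutation p = 0.0952, adjusted p = 0.238 over 5 pairs).

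Around these genes, the list of genes whose products degrade or assist HIF-1alpha held rises and falls in shares near those of all genes tested. Of 24 listed genes, Hif1a, Egln1 and Egln3 included, 22 were tested, 5 rose (22.7%, against 16.7% of all genes tested), 3 fell (13.6%, against 9.81%) and 14 did not pass. Eloc, a subunit of the von Hippel-Lindau ubiquitin ligase, rose from 55.2 ± 5.90 to 91.3 ± 6.74 TPM (limma adjusted p = 0.000108), and its partner Elob from 997 ± 49.5 to 1084 ± 21.3 TPM (0.0472). Rbx1, another subunit of the ligase, fell from 299 ± 27.6 to 256 ± 9.51 TPM, while Vhl itself stood at 3.16 ± 0.285 and 3.49 ± 0.378 TPM and did not pass. The chaperone genes Hsp90aa1 and Hsp90ab1, whose products stabilise HIF-1alpha, rose by 0.54 and 0.35. Ep300, a coactivator, fell from 2.06 ± 0.443 to 1.04 ± 0.295 TPM, and Gnb2l1, which encodes the scaffold protein RACK1, fell by 0.19. Elob did not pass without replicate 1 or 2 at 0.2 mM or without replicate 1, 2, 3, 5 or 6 at 0.8 mM (limma adjusted p from 0.0715 to 0.177), and its change was below 0 with quantile normalization, at -0.04. It passed in only 5 of the 19 other fits, and with median-ratio scaling its change was 0.04 (0.602). At 0.2 mM, leaving out replicate 2 (0.0778) or 3 (0.109) ended the call of Rbx1, replicate 1 (0.115) or 3 (0.0625) that of Ep300, and replicate 1 (0.0973) or 2 (0.052) that of Gnb2l1. Rbx1, Ep300 and Gnb2l1 also did not pass in libraries 1 to 3 of each group, with or without the block (limma adjusted p from 0.063 to 0.19). Without the variance trend Rbx1 (0.1) and Gnb2l1 (0.116) did not pass, nor did Ep300 with no filter (0.0579). Hsp90ab1 no longer passed with median-ratio scaling, quantile normalization or libraries 1 to 3 of each group alone. The elongins, Rbx1, Hsp90, RACK1 and Ep300 are known to serve many other complexes too.

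**Figure D2:**
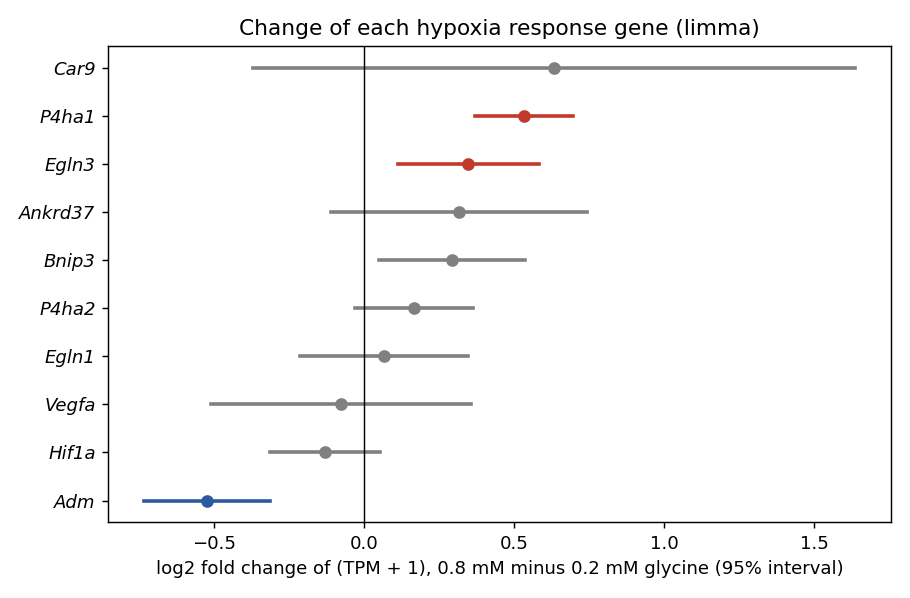
For each hypoxia response gene, the change on the log2(TPM + 1) scale (horizontal axis, positive where 0.8 mM glycine was higher) with its 95% interval from limma. P4ha1 at 0.53 and Egln3 at 0.35 rose (red), Adm at -0.52 fell (blue), and the 7 in grey did not pass the adjusted threshold.

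Of the secreted signals, Adm fell and Vegfa did not pass. Adm encodes adrenomedullin, a peptide that widens vessels (chromosome 7, 110627661 to 110629820). It stood at 79.1, 79.2 and 91.3 TPM at 0.2 mM and at 47.8, 58.0 and 65.0 TPM (lowest, median, highest) at 0.8 mM. Every library at 0.8 mM lay below every library at 0.2 mM, and the gene fell by 0.52 on the log2 scale (SE 0.09, 95% interval from -0.73 to -0.31, limma adjusted p = 0.00188), or by 30.7% in mean TPM. It passed under all 19 other fits, with adjusted p from 0.00057 to 0.0217. Vegfa, which encodes the main growth factor of blood vessels (chromosome 17, 46016993 to 46032369), stood at 5.02, 4.70 and 5.69 TPM at 0.2 mM and at 3.25, 4.73 and 6.75 TPM (lowest, median, highest) at 0.8 mM. The libraries at 0.8 mM spread to both sides of those at 0.2 mM, with a 95% interval of the log2 fold change from -0.51 to 0.36 (limma adjusted p = 0.815). The coefficient of variation of Vegfa was 9.81% at 0.2 mM and 28.9% at 0.8 mM. Its ratio to Vegfb, a related growth factor at 5.48 ± 1.70 and 4.09 ± 1.92 TPM, ran from 0.806 to 1.38 at 0.2 mM and from 0.607 to 2.87 at 0.8 mM (two-sided exact permutation p = 0.429, adjusted p = 0.536 over 5 pairs).

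The ligands and receptors of both signals moved in both directions. Of 17 listed genes, Adm and Vegfa included, 12 were tested, 4 rose (33.3%, against 16.7% of all genes tested), 3 fell (25%, against 9.81%) and 5 did not pass. Adm2, the close relative of Adm, fell from 7.57 ± 2.19 to 2.77 ± 0.724 TPM (limma adjusted p = 0.00209). Ramp2, which pairs with the receptor Calcrl to bind adrenomedullin, rose from 10.3 ± 0.749 to 15.0 ± 1.55 TPM (0.00465), and Ramp3, with the same role, from 0.454 ± 0.347 to 1.85 ± 0.860 TPM (0.0473). Ramp3 was at most 0.829 TPM at 0.2 mM and entered the test only through 0.8 mM, where it was higher. Calcrl itself stood at 7.28 ± 1.37 and 4.89 ± 1.52 TPM and did not pass. Ackr3, a scavenger receptor for chemokines and adrenomedullin, rose from 2.62 ± 0.314 to 4.61 ± 0.870 TPM (0.0111). The VEGF co-receptor genes went opposite ways, Nrp1 from 3.26 ± 0.615 up to 5.87 ± 0.871 TPM (0.0039) and Nrp2 from 7.57 ± 1.07 down to 5.19 ± 0.778 TPM (0.0256). Adm2, Ramp3, Ackr3 and Nrp1 are named here outside the naming rule, with their values known. Ramp3 passed with 0.8 mM replicate 4 left out but with no other library left out (limma adjusted p from 0.0526 to 0.173), and it did not pass with a pseudocount of 0.1, no filter, other scalings, ribosomal RNA genes removed or no trend (0.0525 to 0.122). Nrp2 did not pass without replicate 1 (limma adjusted p = 0.0863) or 2 (0.116) at 0.2 mM or with no filter (0.0502). Ackr3 did not pass without 0.2 mM replicate 1 (0.0526) or in libraries 1 to 3 of each group, with a block on the number (0.0637) or without it (0.0705). Nrp1 did not pass in the blocked fit (0.0912). The tyrosine kinase receptors of VEGF stayed under the filter, Flt1 at 0.378 ± 0.130 and 0.856 ± 0.143 TPM and Kdr at 0.163 ± 0.0803 and 0.321 ± 0.134 TPM.

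P4ha1 and P4ha2, like P4ha3, encode alternative catalytic subunits of collagen prolyl 4-hydroxylase, which modifies collagen so that its triple helix is stable at body temperature. P4ha1 (chromosome 10, 59323296 to 59373304) stood at 22.6, 20.2 and 23.6 TPM at 0.2 mM and at 30.8, 32.2 and 34.3 TPM (lowest, median, highest) at 0.8 mM. All 6 libraries at 0.8 mM lay above all 3 at 0.2 mM, and the gene rose by 0.53 ± 0.07 (SE, 95% interval from 0.37 to 0.70, limma adjusted p = 0.000305), 46.5% in mean TPM. It passed under all 19 other fits, with adjusted p from 0.000131 to 0.0247. P4ha2 (chromosome 11, 54100095 to 54131665) was the more abundant subunit, at 125, 104 and 133 TPM at 0.2 mM and at 118, 136 and 145 TPM (lowest, median, highest) at 0.8 mM. Its groups overlapped, with a 95% interval from -0.03 to 0.36 (limma adjusted p = 0.206). P4ha2 TPM were 5.56-, 5.16- and 5.65-fold those of P4ha1 at 0.2 mM and 3.63- to 4.55-fold at 0.8 mM, so the ratios did not overlap. The exact permutation p of this ratio was 0.0238, two-sided and the smallest that 84 splits allow, and it missed the threshold when adjusted over the 5 pairs (0.119).

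The rise of P4ha1 stood among rises of genes that act on collagen. All 16 listed genes of collagen hydroxylation and folding were tested, with P4ha1 and P4ha2 among them. Of these 10 rose (62.5%, against 16.7% of all genes tested) and 6 did not pass, 0 fell in limma, and 0 fell at an unadjusted p under 0.05. P4hb, the partner of the P4ha subunits and also a general folding enzyme, rose from 71.2 ± 8.08 to 166 ± 11.2 TPM (limma adjusted p = 1.39e-06). P4ha3, named with its values known, rose from 1.26 ± 0.313 to 2.64 ± 0.542 TPM (limma adjusted p = 0.0100). P3h1, which encodes an enzyme that hydroxylates a further proline, and P3h4, a member of its gene family, rose too. P3h2, P3h3 and Crtap, also listed, did not pass. P3h1 went from 7.55 ± 1.40 to 14.7 ± 0.732 TPM, and P3h4 was at 6.02 ± 1.21 and 12.6 ± 1.58 TPM. The median log2 fold change of the 16 was 0.61, against 0.06 for all genes tested. The collagen chains on which these enzymes act rose in 9 of 11 tested (81.8%, against 16.7% of all genes tested), by 0.92 for Col1a1, from 60.8 ± 11.4 to 116 ± 13.99 TPM, by 0.92 for Col6a3 and by 0.83 for Col5a3. Col5a2 was lower in every library at 0.8 mM, at 36.9 ± 1.54 and 32.4 ± 1.66 TPM (limma unadjusted p = 0.0249, adjusted p = 0.079). With median-ratio scaling, quantile normalization or ribosomal RNA genes removed, 1 chain fell. In libraries 1 to 3 of each group 7 of the chains rose, and 5 with a block on the number. Among fibroblast markers 5 of 9 tested rose (55.6%, against 16.7% of all genes tested). Pi16, which rose, was at most 0.977 TPM at 0.2 mM and entered the test only through 0.8 mM. The summed TPM of the 10 listed ran from 2157 to 2510 at 0.2 mM and from 2483 to 3007 at 0.8 mM. Most of this sum was Dcn, at 1878 ± 184 and 1689 ± 209 TPM, and Ly6a, which rose from 313 ± 19.6 to 901 ± 37.1 TPM. Lum rose from 6.24 ± 1.03 to 19.7 ± 2.24 TPM, and Dpp4 was at 0 in 1 library. Their part in the collagen genes was not tested. In bulk RNA such as this, fewer cells of a type and less RNA per cell cannot be told apart.

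Bnip3, a mitochondrial outer membrane protein that marks mitochondria for removal (chromosome 7, 138890836 to 138909519), was the most abundant of the hypoxia genes. It stood at 224, 203 and 304 TPM at 0.2 mM and at 268, 297 and 314 TPM (lowest, median, highest) at 0.8 mM. Replicates 1 and 2 at 0.2 mM lay below all 6 libraries at 0.8 mM, and replicate 3 lay within them. The log2 fold change was 0.29 ± 0.11 (SE), with a 95% interval for this gene alone from 0.05 to 0.54, and the adjusted p missed the threshold (limma, 0.0727). Without 0.2 mM replicate 3 the log2 fold change was 0.46 (limma adjusted p = 0.00154), and without 0.2 mM replicate 2 it was 0.17 (0.309). With quantile normalization it was 0.09 (0.583), with median-ratio scaling 0.21 (0.178), and under a filter that keeps genes averaging 5 TPM or more the adjusted p was 0.0478. Its relative Bnip3l stood at 33.1 ± 11.3 and 34.0 ± 9.81 TPM, and Bnip3 TPM were 6.08- to 10.4-fold those of Bnip3l at 0.2 mM and 5.75- to 11.96-fold at 0.8 mM (two-sided exact permutation p = 0.429, adjusted p = 0.536 over 5 pairs). An antisense gene that overlaps Bnip3, Gm45507, was at 0 TPM in every library.

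Other genes of mitophagy, the removal of mitochondria by autophagy, did not rise. Of the 15 tested of 16 listed, Bnip3 included, 4 fell (26.7%, against 9.81% of all genes tested) and 11 did not pass. In limma 0 rose, against 16.7% of all genes tested, and only Bnip3 itself was higher at an unadjusted p under 0.05. Sqstm1, an autophagy cargo receptor, fell from 309 ± 2.42 to 88.7 ± 5.66 TPM (limma adjusted p = 1.53e-08) and Optn, another receptor, from 2.34 ± 0.423 to 0.917 ± 0.172 TPM. Optn was at most 1.16 TPM at 0.8 mM and passed the filter through 0.2 mM, where it was higher, so the filter favoured its direction. Gabarapl1 and Map1lc3b, which encode proteins of the autophagosome membrane, fell as well. Gabarapl1 was at 23.97 ± 0.189 and 12.5 ± 0.781 TPM, and Map1lc3b at 69.7 ± 8.99 and 53.1 ± 3.19 TPM. These 4 serve autophagy in general and not mitophagy alone.

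Ankrd37, an ankyrin repeat gene much used as a marker of HIF activity (chromosome 8, 45996902 to 46005707), stood at 6.04, 4.19 and 7.38 TPM at 0.2 mM and at 5.88, 7.05 and 10.8 TPM (lowest, median, highest) at 0.8 mM. The groups overlapped, with a 95% interval of the log2 fold change from -0.11 to 0.74 (limma adjusted p = 0.262). Its exons overlap those of Ufsp2 on the opposite strand, which rose from 5.95 ± 2.22 to 10.9 ± 1.80 TPM (limma adjusted p = 0.00883). Since the use of strand is not given in the sources used here, reads of these genes may not have been told apart.

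Car9, a carbonic anhydrase of the cell surface and among the most oxygen-sensitive HIF targets (chromosome 4, 43506966 to 43513729), was the least abundant at 0.2 mM. It stood at 0.0652, 0.237 and 2.47 TPM at 0.2 mM and at 0.618, 1.40 and 4.95 TPM (lowest, median, highest) at 0.8 mM. Replicate 3 at 0.2 mM was above 5 of the 6 libraries at 0.8 mM, and the coefficient of variation was 145% and 86.5%. The 95% interval of the log2 fold change ran from -0.37 to 1.64 (limma adjusted p = 0.347), so a change of either sign was within it. Of the 16 carbonic anhydrase genes, Car9 included, 5 were tested, 1 rose (20%, against 16.7% of all genes tested), 1 fell (20%, against 9.81%) and 3 did not pass. Car12, also a surface enzyme and HIF target, rose from 0.736 ± 0.407 to 2.70 ± 1.31 TPM (limma adjusted p = 0.0339), and did not pass without replicate 1 or 2 at 0.2 mM or without replicate 2, 3, 4 or 6 at 0.8 mM (0.053 to 0.141), with no filter, with quantile normalization or in libraries 1 to 3 of each group. At 0.2 mM Car12 reached 1 TPM in replicate 3 alone. It entered the test through 0.8 mM, where it was higher, so the filter favoured its direction. Car6, a secreted form, fell from 3.07 ± 0.688 to 0.290 ± 0.133 TPM (limma adjusted p = 2.19e-05). It was at most 0.454 TPM at 0.8 mM and entered the test only through 0.2 mM, where it was higher. Car13, a cytosolic form, was the most abundant at 17.2 ± 0.611 and 16.8 ± 2.20 TPM.

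In the order of their levels, Bnip3, P4ha2, Adm, Hif1a and P4ha1 came first by mean TPM at both glycine levels. Adm and Hif1a overlapped at 0.8 mM, and in replicate 5 Hif1a was the higher. Ankrd37, Egln3 and Vegfa followed with ranges that overlapped one another at both levels. Egln1 and Car9 were lowest and also overlapped.

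**Figure D3:**
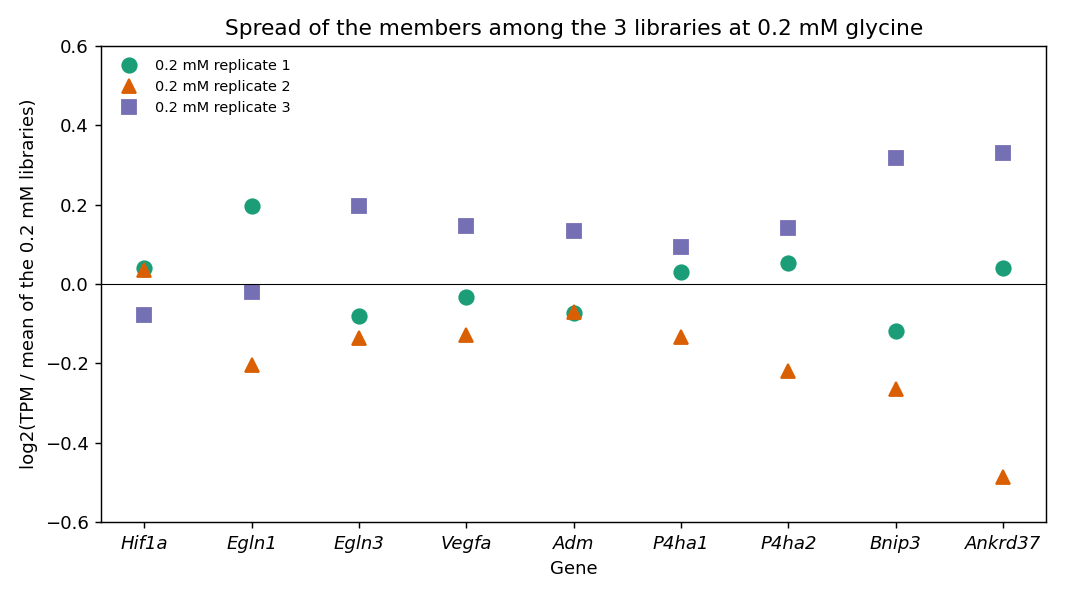
For 9 of the hypoxia genes (horizontal axis), the log2 ratio of the TPM in each library at 0.2 mM glycine to the mean of the 3 libraries (vertical axis). Replicate 3 (squares) is highest for 7 of the 9 and replicate 2 (triangles) is lowest for 7, against 36.7% and 37.6% of all genes tested. Car9, at 0.0652, 0.237 and 2.47 TPM, is left out because its spread exceeds the axis.

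The libraries at 0.2 mM stood in the same order for most of the hypoxia genes. Replicate 3 was the highest of the 3 libraries for 8 of the 10 hypoxia genes, against 36.7% of all genes tested, and replicate 2 the lowest for 7, against 37.6%. Both held for Vegfa, P4ha1, P4ha2, Bnip3, Egln3 and Ankrd37, that is for 6 of 10, where 20.5% of all genes tested showed this order. This count was chosen after the values were seen. The coefficient of variation at 0.2 mM was 4.56% for Hif1a, 7.97% for P4ha1, 8.44% for Adm, 21.9% for Bnip3 and 27.2% for Ankrd37. Without 0.2 mM replicate 3, Bnip3 joined P4ha1 and Egln3 among the genes that rose, which then numbered 3. At 0.8 mM replicate 6 was the highest for Ankrd37, Car9 and P4ha1.

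Of 46 widely used hypoxia targets outside the 10 genes 41 were tested, 17 rose, 4 fell and 20 did not pass. That is 41.5% that rose, against 16.7% of all genes tested, and 9.76% that fell, against 9.81%, with a median log2 fold change of 0.42. Those with the largest rise were Ndufa4l2, which restrains mitochondrial respiration, from 26.3 ± 3.06 to 134 ± 12.4 TPM (limma adjusted p = 4.66e-08), Nos2, the inducible nitric oxide synthase, from 2.00 ± 0.163 to 11.5 ± 2.97 TPM, and Igfbp3, which binds insulin-like growth factors, from 10.6 ± 1.52 to 33.3 ± 2.68 TPM. Those with the largest fall were the metallothionein gene Mt1, from 10454 ± 603 to 2065 ± 460 TPM, Angptl4, an inhibitor of lipoprotein lipase, from 141 ± 12.6 to 48.5 ± 9.77 TPM, and Rbpj, a transcription factor of Notch signalling, from 9.91 ± 1.01 to 5.96 ± 0.5004 TPM. Car12 and Pdgfb, among the 17 that rose, each reached 1 TPM in a single library at 0.2 mM. They entered the test through 0.8 mM, where they were higher, so the filter favoured their direction. Of 18 tested glycolytic targets 15 rose (83.3%, against 16.7% of all genes tested) and 3 did not pass. In limma 0 fell, against 9.81% of all genes tested, and 0 fell at an unadjusted p under 0.05. Eno1, an enolase, rose by 1.58, Slc16a3, a lactate exporter, by 1.06 and Pkm, pyruvate kinase, by 0.94, and the median of the 18 was 0.63. Eno1b, a near-identical copy of Eno1, did not enter the test, and pseudogenes of glycolytic enzymes could take or give reads.

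**Figure D4:**
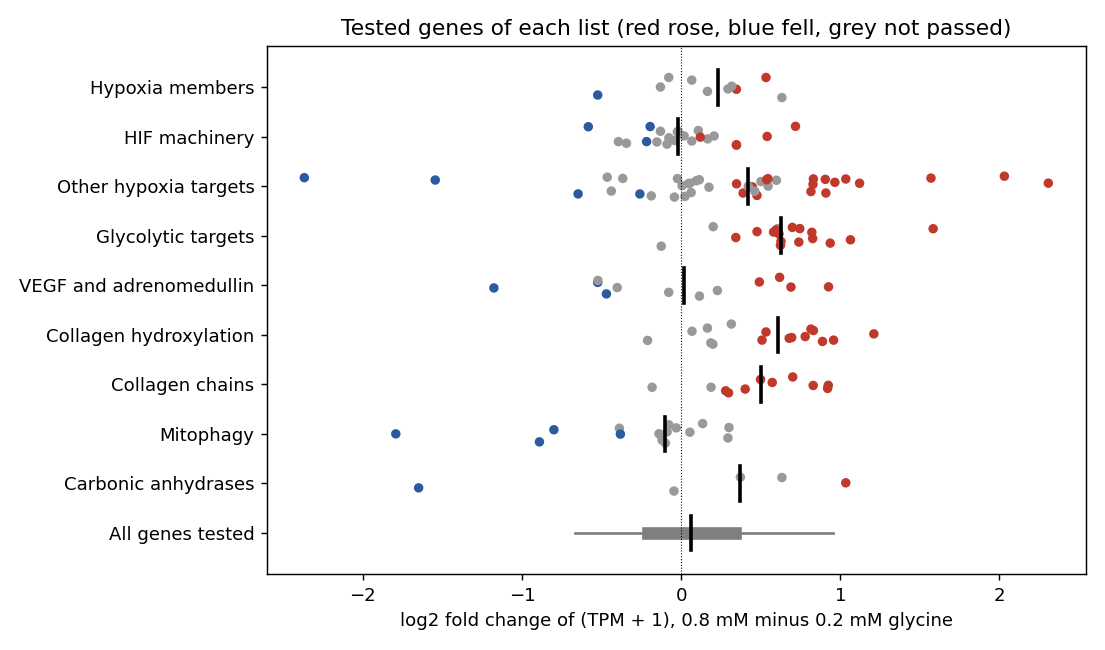
Change on the log2(TPM + 1) scale (horizontal axis, positive where 0.8 mM glycine was higher) of the tested genes of each list, red where a gene rose, blue where it fell and grey where it did not pass. Black bars are medians, from 0.63 for the glycolytic targets and 0.23 for the 10 hypoxia genes to -0.10 for mitophagy, and the bottom row gives the median, middle 50% and central 90% of all genes tested.

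Of the 10 markers of the muscle lineage 8 rose (80%, against 16.7% of all genes tested). The summed TPM of the 10 ran from 529.8 to 620.4 at 0.2 mM and from 1173 to 1433 at 0.8 mM. Much of this sum was Myog, at 247 ± 16.9 and 523 ± 41.2 TPM, and Des, at 104 ± 12.8 and 356 ± 30.5 TPM, which mark differentiating muscle cells. Pax7, which marks the stem cells of muscle, did not pass, at 0.712 ± 0.176 and 1.20 ± 0.312 TPM. Macrophage markers were present and moved in both directions. All 15 were above 0 TPM in every library. Of these 4 rose (26.7%, against 16.7% of all genes tested) and 1 fell (6.67%, against 9.81%). Itgam, which rose, was at most 0.778 TPM at 0.2 mM and entered the test only through 0.8 mM. The sum of the 15 ran from 1901 to 2081 TPM at 0.2 mM and from 2089 to 2554 TPM at 0.8 mM. Lyz2 rose from 588 ± 30.6 to 1013 ± 153 TPM, while Cd68 fell from 182 ± 13.6 to 57.6 ± 2.38 TPM. The mean of the sum was 1994 and 2323 TPM, a smaller rise than that of Lyz2 alone. With median-ratio scaling 4 of the macrophage markers rose and 4 fell, and with quantile normalization 3 rose and 4 fell. The 10 endothelial markers summed to 27.6 to 33.5 and 39.2 to 58.4 TPM, and 5 of 6 tested rose (83.3%, against 16.7% of all genes tested). Pecam1 and Cdh5, among those that rose, were at most 0.918 and 0.875 TPM at 0.2 mM. They entered the test only through 0.8 mM, where they were higher, so the filter favoured their direction. Adm, Vegfa and Nos2 can be made by macrophages as well as muscle cells, and the part of these cells in the results was not tested.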

How the data were processed

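The authors deposited 1 table of TPM for 53715 gene IDs with symbols in 9 libraries. Per the submitters' processing notes HISAT2 2.0.5, StringTie 1.3.3, DESeq2 and the mm10 build were used, with no role or order given. Their settings, the annotation and any use of strand: not given in the sources used here. TPM are not counts, so limma 3.58.1 in R 4.3.3 (two-sided; moderated variances with a trend on abundance) was run on log2(TPM + 1) of the 10049 genes with at least 1 TPM in at least 3 libraries, with no further scaling. The test was tested on simulated data. Ratios of 5 pairs of related genes were compared by exact permutation. Positions came from GENCODE M21 (GRCm38), promoters from RefSeq. The members, lists and tests were chosen with earlier results of these data known. The text names all 10 members, the genes of the HIF machinery that passed and, in other lists, all that passed where 6 or fewer, otherwise the 3 largest rises and 3 largest falls with a mean of at least 5 TPM; further names were chosen after their values were seen. The closing section gives the alternatives. Figures used matplotlib 3.10.9.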

Additional observations from a re-analysis of the deposited data

Results flagged for a closer look

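Among 18 sets of 6 values at 0.8 mM glycine, 3 had a library that stood apart by Dixon's criterion, which chance gives in about 1 in 20 sets. Car9 was at 4.95 TPM in replicate 6, above the other libraries, whose highest was 1.99 TPM. Arnt was at 1.27 TPM in replicate 4, below the other libraries. The ratio of Hif1a to Arnt was therefore 39.9 in that replicate.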

How the results depend on the processing

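The call of Adm and that of P4ha1 held under all 19 other fits. Of the hypoxia genes, 1 rose in place of 2 with median-ratio scaling, with quantile normalization, without ribosomal RNA genes and when only libraries 1 to 3 per group were fitted, with a replicate block on the number or with no block, and 1 to 3 rose with 1 library left out. Of all genes 986 fell, 748 in libraries 1 to 3 with no block and 625 there with the replicate block. Same-numbered libraries had correlations of deviations of 0.0383, 0.00233 and 0.107, and not every library correlated best with its own number, so the numbers were not taken as pairs. The log2 ratio of P4ha2 to P4ha1 differed by -0.39, by -0.43 with the block (exact permutation p = 0.25, the smallest 3 pairs allow) and by -0.43 to -0.35 with 1 library left out (p up to 0.0714, the smallest possible without a library at 0.2 mM). That of Egln3 to Egln1 differed by 0.30, by 0.29 with a pseudocount of 0.5 (exact permutation p = 0.0476) and by 0.16 to 0.40 with 1 library left out (0.35 without 0.8 mM replicate 1, exact permutation p = 0.0357). That of Hif1a to Arnt, -0.07, was 0.12 without 0.2 mM replicate 2 and 0.0181 without 0.8 mM replicate 2, from -0.25 to 0.12 with 1 library left out, and -0.32 with the block. Uncalled log2 fold changes that turned sign were Vegfa at 0.0121 without 0.8 mM replicate 3 (-0.16 without 0.8 mM replicate 5, and -0.33 in libraries 1 to 3), Egln1 at -0.0055 with quantile normalization, Egln2 at 0.0162 without 0.2 mM replicate 1 (lowest -0.18, without 0.2 mM replicate 2), and Arnt at 0.0399 without 0.2 mM replicate 3, 0.0667 without 0.8 mM replicate 4 (lowest -0.16, without 0.2 mM replicate 2) and 0.0894 in libraries 1 to 3, with the block or without it. Bnip3l was at -0.0279 with median-ratio scaling, -0.0287 with quantile normalization, -0.21 without 0.2 mM replicate 1, -0.0714 without 0.8 mM replicate 6 and -0.0673 in libraries 1 to 3. Elob, which rose, was at -0.0367 with quantile normalization. The cause was not tested. Of the HIF machinery 5 rose and 3 fell, against 2 and 3 with median-ratio scaling and 2 and 4 with quantile normalization. In libraries 1 to 3 of each group 2 rose and 0 fell, and in several other fits 3 rose or 1 fell. Depth is unknown, so the limit it sets on genes near 1 TPM, such as Car9 and Egln1, cannot be given.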

Other observations

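The order of the libraries at 0.2 mM that most hypoxia genes showed also appeared in the glycolytic targets. Replicate 2 was the lowest and replicate 3 the highest for 12 of the 18 tested glycolytic targets, and for 8 of the 41 tested other hypoxia targets, where 20.5% of all genes tested showed this order. For Ndrg1, a growth-arrest gene induced by low oxygen, the libraries at 0.2 mM were at 72.8, 41.1 and 80.4 TPM, and the gene did not pass (limma adjusted p = 0.053). These counts were chosen after the values were seen.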
